A study of Mus musculus with 8 samples.

Results

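The mouse genes named Zfp900 to Zfp999 are numbered members of the C2H2 zinc finger family. They were taken as every row of the gene table whose symbol is Zfp and a number between those of Zfp900 and Zfp999, with nothing after it, which gave 47 of 13575 rows and 46 symbols, since Zfp935 is listed under 2 gene IDs. GENCODE vM21 names 64 genes in this way, and those outside the 47 rows were not analysed here. RNA was measured by poly-A RNA sequencing in cultured retinal astrocytes (AC), as 4 Cyp1b1+/+ libraries and 4 libraries labelled Cyp1b1-/-. Per the study's methods, the retinas of a litter of 4-week-old mice of mixed gender were pooled for a preparation, endothelial cells were removed with CD31 beads, and all cells were grown in medium with interferon-γ. Cyp1b1 encodes a cytochrome P450, and the comparison asks how the transcriptome differs between AC with and without it. No source states whether the 4 libraries of a group came from separate cultures, and the p-values reflect only how these libraries vary, which may be technical.

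The labels need a caution before the results. Cyp1b1, the targeted gene, had normalized values of 749, 829, 856 and 882 in Cyp1b1+/+ and of 1296, 1276, 1288 and 1368 in the group labelled Cyp1b1-/-, so its RNA level runs against the label, and the values do not show which exons were read. The 4 Y-linked genes Ddx3y, Eif2s3y, Kdm5d and Uty summed to 0 to 2 in each Cyp1b1+/+ library and to 3636 to 3821 elsewhere, while Xist, chosen after its values were seen, averaged 24444 and 40.8. No library held both kinds of RNA at a high level, while the methods describe mice of mixed gender. The groups therefore differ in sex-linked RNA as well as in label, and the 2 cannot be told apart. Of 11 astrocyte markers 6 were measured: Vim had means of 78996 and 109260, Pax2 of 32.8 and 0.25, and Gfap, S100b, Aqp4, Aldh1l1 and Pdgfra have no row in the table. Of markers of other cells, 1 of 8 endothelial, 2 of 7 pericyte and smooth muscle, 1 of 6 microglial and 2 of 7 neuronal genes were measured. Summed over each list, the values in Cyp1b1+/+ and under the Cyp1b1-/- label were 76755 to 82942 and 100970 to 130121 for astrocyte markers, 191 to 228 and 156 to 175 for the endothelial gene Kdr, and 32 to 37 and 7 to 15 for the microglial gene Csf1r. Vim carries nearly all of the astrocyte sum, and Sox9 and Glul had means of 112 and 97 and of 1664 and 1632. Slc1a3 and Slc1a2 were low, with means of 26.5 and 28.75 and of 13.5 and 17.75, and did not pass. They were 21542 to 26042 and 23967 to 35091 for pericyte and smooth muscle genes, of which Acta2 carries most and did not pass and Notch3 was lower, and 2231 to 2265 and 2558 to 3630 for neuronal genes. Their part in the results on the zinc finger genes was not tested. Levels here are of bulk cultures, in which fewer cells of a type and less RNA per cell cannot be told apart.

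C2H2 zinc finger proteins bind DNA through tandem fingers, each a short loop that holds a zinc ion between a pair of cysteines and a pair of histidines. Many of them also carry a KRAB box, which recruits the co-repressor Trim28 (KAP1) and with it histone methyltransferases that silence chromatin. The KRAB zinc finger genes lie in clusters that arose by repeated duplication, many of them particular to rodents, and members are best known for silencing transposable elements and imprinted loci. For most genes of this numbering no individual role is given here.

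Of the 47 rows, 18 were lower, 4 were higher and 25 did not pass the test. The values are counts scaled to a common library size by the authors, called normalized values, and each gene was tested with limma after adding 1 and taking log2, with p-values adjusted over all genes by Benjamini-Hochberg and the sign of the Cyp1b1-/- label minus Cyp1b1+/+. In all, 22 (46.8%) passed an adjusted p under 0.05, while 53.7% of all genes tested did so. Lower values were found for 18 members (38.3%, background 26.9%) and higher values for 4 (8.51%, background 26.8%). With a change of more than 1.5-fold, 4 members were lower (8.51%, background 8.29%) and 1 was higher (2.13%, background 7.09%). At more than 2-fold, 1 member was lower (background 4.52%) and 1 higher (background 2.6%). All 4 libraries labelled Cyp1b1-/- lay below all 4 Cyp1b1+/+ libraries in 14 members (29.8%, background 24.4%) and above them in 4 (8.51%, background 24.8%). Leaving out each library in turn gave 12 to 18 lower members, with 12 without Cyp1b1+/+ replicate 2, and 3 to 4 higher. Without replicate 2 labelled Cyp1b1-/-, the library with the lowest sum over the members, the counts were 18 and 3.

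The median log2 fold change was -0.17 over the members, with 34 of 47 below 0, against -0.08 over the 272 other numbered Zfp genes, with 164 below 0, and -0.0004 over all genes. Among the other Zfp genes 87 (32%) were lower and 55 (20.2%) higher. The members are genes of modest level, with means over the 8 libraries from 18.9 to 539, and of the 6596 genes of the table in that range 24.7% were lower and 23.3% higher. Summed over the members, the Cyp1b1+/+ libraries held 7999, 8015, 7834 and 7735, and those labelled Cyp1b1-/- held 7035, 6792, 7107 and 7290. These sums do not overlap, and replicate 2 labelled Cyp1b1-/- is the lowest of the 8.

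**Figure D1:**
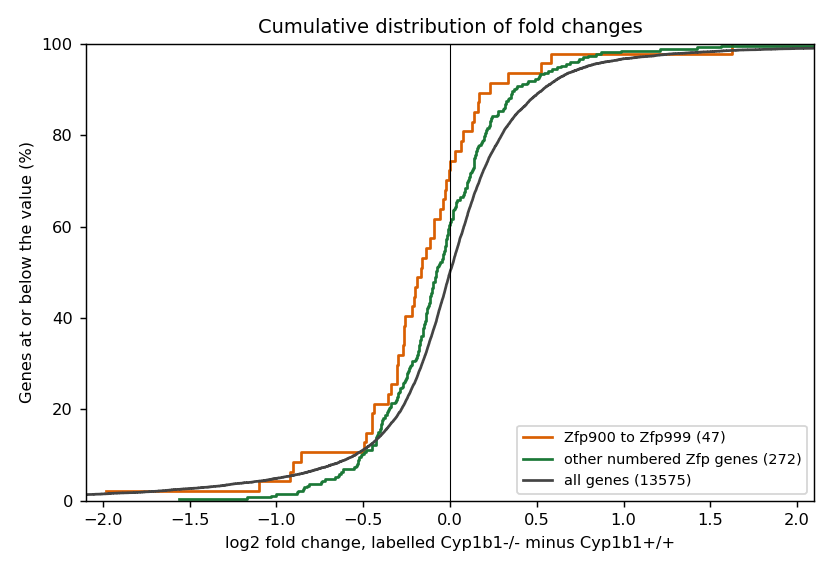
Cumulative share of genes (y axis, %) at or below each log2 fold change (x axis, Cyp1b1-/- label minus Cyp1b1+/+) for the 47 members, the 272 other numbered Zfp genes and all 13575 genes. The curve of the members lies to the left of the others over the middle of the range, with 34 of 47 below 0.

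Promoter windows are shown for the 4 members with the largest changes free of overlap, for Zfp938, chosen after its values were seen, and for the window shared by the divergent neighbours Zfp942 and Zfp943. The windows run from 250 bases before to 50 after the RefSeq start on GRCm38, 5′ to 3′ on the strand of the gene. Capitals mark the GC box GGGCGG, the CCAAT box CCAAT and GCGTG, the core of the AhR response element, on either strand.
Zfp976 (chr7:42642555-42642854, minus strand): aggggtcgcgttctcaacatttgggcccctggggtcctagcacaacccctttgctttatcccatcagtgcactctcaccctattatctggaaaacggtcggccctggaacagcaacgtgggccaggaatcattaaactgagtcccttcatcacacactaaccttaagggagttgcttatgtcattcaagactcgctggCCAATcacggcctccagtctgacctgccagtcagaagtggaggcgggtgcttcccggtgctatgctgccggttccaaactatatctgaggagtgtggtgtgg
Zfp951 (chr5:104859978-104860277, minus strand): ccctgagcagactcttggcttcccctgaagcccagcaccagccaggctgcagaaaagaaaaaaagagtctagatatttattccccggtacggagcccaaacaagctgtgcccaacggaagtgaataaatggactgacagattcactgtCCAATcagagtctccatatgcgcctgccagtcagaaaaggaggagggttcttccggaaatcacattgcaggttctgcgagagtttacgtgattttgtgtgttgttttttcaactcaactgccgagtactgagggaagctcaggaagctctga
Zfp940 (chr7:29853599-29853898, minus strand): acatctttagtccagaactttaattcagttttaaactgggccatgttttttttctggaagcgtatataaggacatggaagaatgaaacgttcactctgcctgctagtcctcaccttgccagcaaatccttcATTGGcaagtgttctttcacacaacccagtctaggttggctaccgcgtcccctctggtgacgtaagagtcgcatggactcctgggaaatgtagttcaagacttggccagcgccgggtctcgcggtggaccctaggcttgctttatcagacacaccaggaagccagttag
Zfp941 (chr7:140822129-140822428, minus strand): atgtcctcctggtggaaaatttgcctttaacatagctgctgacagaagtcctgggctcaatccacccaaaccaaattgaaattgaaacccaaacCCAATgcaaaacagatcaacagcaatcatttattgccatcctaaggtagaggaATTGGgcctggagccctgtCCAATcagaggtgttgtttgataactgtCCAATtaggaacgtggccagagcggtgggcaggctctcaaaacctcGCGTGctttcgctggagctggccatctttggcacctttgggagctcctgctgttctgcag
Zfp938 (chr10:82241231-82241530, minus strand): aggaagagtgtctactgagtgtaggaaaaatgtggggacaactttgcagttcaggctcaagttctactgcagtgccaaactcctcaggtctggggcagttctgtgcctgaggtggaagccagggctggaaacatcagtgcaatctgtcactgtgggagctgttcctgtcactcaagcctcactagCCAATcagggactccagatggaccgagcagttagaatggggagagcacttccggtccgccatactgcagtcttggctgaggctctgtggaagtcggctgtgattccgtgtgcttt
Zfp943 (chr17:21962309-21962608, plus strand): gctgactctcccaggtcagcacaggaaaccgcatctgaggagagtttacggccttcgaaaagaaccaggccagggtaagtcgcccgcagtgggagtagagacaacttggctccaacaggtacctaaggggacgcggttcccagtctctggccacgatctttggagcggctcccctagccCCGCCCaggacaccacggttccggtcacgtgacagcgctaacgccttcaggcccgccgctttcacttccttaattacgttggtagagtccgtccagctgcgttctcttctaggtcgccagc

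Windows were found for 41 of the 46 symbols, with the first listed window taken for each. A CCAAT box on either strand was present in 29 of 41 (70.7%), and in 37.4% of all 32851 RefSeq promoter windows of the same length. A GC box was present in 13 (31.7%, against 35.7% of all windows) and GCGTG in 12 (29.3%, against 32.4%). The background counts every listed window of a gene, and windows of duplicated members may be copies, so these shares are not like for like. No base belongs to more than 1 of the motifs in the windows shown. By outcome, a CCAAT box was present in 9 of 17 members that were lower, in 3 of 3 that were higher and in 17 of 21 that did not pass. The median number of CG pairs was 10 in the lower members, 5 in the higher and 8 in those that did not pass. The windows of Zfp976, Zfp951, Zfp940 and Zfp938 each hold 1 CCAAT box and that of Zfp941 holds 4, while that of Zfp943 holds none and 21 CG pairs. These matches are a description of letters and not of bound sites.

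Zfp976 had the lowest p of the family. This gene lies on chromosome 7 (42609526 to 42642588, minus strand) and its coding sequence holds 18 zinc fingers. Its normalized values were 159, 172, 170 and 162 in Cyp1b1+/+ and 78, 71, 79 and 79 under the Cyp1b1-/- label. The groups lie far apart and each is narrow. Averages were 166 ± 6.24 and 76.8 ± 3.86 (SD, n = 4 each), and the log2 fold change was -1.10 (SE, the standard error of the fit, 0.08, limma adjusted p = 1.71e-06). Leaving out each library in turn kept the log2 fold change between -1.12 and -1.06. Zfp975, its neighbour 17517 bases away, was lower too, with 79, 76, 68 and 60 against 49, 57, 47 and 46 (log2 fold change -0.50, SE 0.13, limma adjusted p = 0.00911). The nearest measured gene on the other side, Zfp141, 103786 bases away, fell by 0.49 on the log2 scale (limma adjusted p = 0.00017). Zfp976 and Zfp975 share stretches of identical sequence, so reads from shared stretches can be split between them. The coding letters of a finger that occurs unchanged in both are printed here, with the codons of the cysteines and histidines in capitals.
Zfp976 (chr7:42613368-42613430, minus strand, exon 4 of 4): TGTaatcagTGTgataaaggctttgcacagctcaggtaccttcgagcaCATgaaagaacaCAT
Zfp975 (chr7:42662225-42662287, minus strand, exon 4 of 4): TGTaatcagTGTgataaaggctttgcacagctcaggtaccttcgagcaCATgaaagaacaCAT

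Zfp940 and Zfp951 were lower to a similar extent. Zfp940 (chromosome 7, 29833620 to 29853669, minus strand, 10 fingers) had 93, 98, 90 and 94 in Cyp1b1+/+ and 49, 45, 56 and 47 in the other group. Its means were 93.8 ± 3.30 and 49.2 ± 4.79 (SD, n = 4), a log2 fold change of -0.92 (SE 0.11, limma adjusted p = 5.02e-05). Its highest value under the Cyp1b1-/- label lies well below the lowest Cyp1b1+/+ value. Zfp951 (chromosome 5, 104813169 to 104860070, minus strand, 10 fingers) had 254, 224, 211 and 207 against 108, 106, 139 and 126. Its means were 224 ± 21.3 and 120 ± 15.7 (SD, n = 4), a log2 fold change of -0.90 (SE 0.11, limma adjusted p = 5.26e-05). Here too no library of one label reached the range of the other, though the spread within groups was wider than for Zfp940. The opening fingers of their coding sequences, with cysteine and histidine codons in capitals, are printed with those of Zfp941 and Zfp938 so that their letters can be compared.
Zfp951 (chr5:104815105-104815167, minus strand, exon 5 of 5): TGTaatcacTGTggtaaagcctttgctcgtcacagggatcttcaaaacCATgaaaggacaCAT
Zfp940 (chr7:29845662-29845724, minus strand, exon 5 of 5): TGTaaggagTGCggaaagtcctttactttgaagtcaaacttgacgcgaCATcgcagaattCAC
Zfp941 (chr7:140812362-140812424, minus strand, exon 3 of 4): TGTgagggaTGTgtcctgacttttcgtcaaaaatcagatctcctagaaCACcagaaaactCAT
Zfp938 (chr10:82225834-82225896, minus strand, exon 4 of 4): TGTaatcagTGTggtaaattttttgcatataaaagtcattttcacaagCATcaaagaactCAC

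Zfp941 went the other way and had the largest rise of the family. The gene lies on chromosome 7 (140807449 to 140822178, minus strand) and encodes 9 fingers. It was near the lower end of the measured range, with 9, 7, 11 and 8 in Cyp1b1+/+ and 29, 29, 34 and 24 under the Cyp1b1-/- label. Averages were 8.75 ± 1.71 and 29 ± 4.08 (SD, n = 4), a log2 fold change of 1.63 (SE 0.23, limma adjusted p = 0.000205). The ratio of the means was 3.31, and the added 1 lowers the fitted change of a gene at this level. No value of either group falls within the other, and the log2 fold change stayed between 1.54 and 1.73 when each library was left out. Of its nearest measured neighbours, Bet1l, a SNARE protein gene 31216 bases away, fell by 0.35 on the log2 scale (limma adjusted p = 0.000924). Mtg1, a mitochondrial GTPase gene 656663 bases away on the other side, had a log2 fold change of 0.08 (limma adjusted p = 0.49).

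Zfp938, the only member on chromosome 10 (82224850 to 82241280, minus strand), had 131, 149, 135 and 154 in Cyp1b1+/+ and 230, 229, 171 and 230 under the Cyp1b1-/- label. Its means were 142 ± 11 and 215 ± 29.3 (SD, n = 4), a log2 fold change of 0.58 (SE 0.11, limma adjusted p = 0.00116), just under the 1.5-fold limit of 0.585. The ratio of these means was 1.51. Adding 0.1 or 0.5 in place of 1 gave log2 fold changes of 0.5876 and 0.5863, over that limit. Replicate 3 labelled Cyp1b1-/- lies apart from the other 3, and the groups still do not overlap. On chromosome 10 as a whole, 73.8% of 657 genes were higher and the median log2 fold change was 0.47, which puts Zfp938 at 0.11 above its chromosome. The part of that shift in the value of Zfp938 was not tested. Zfp970 (chromosome 2, 14 fingers) was also higher, with 147, 148, 130 and 132 against 168, 159, 192 and 185 (log2 fold change 0.33, SE 0.09, limma adjusted p = 0.00812). Zfp991, which shares much sequence with other genes, Zfp993 among them, had 63, 80, 89 and 49 against 104, 110, 75 and 112, which overlap, and a log2 fold change of 0.53 (limma adjusted p = 0.0452). It lost the test when Cyp1b1+/+ replicate 1 or 4 was dropped, and also when the dropped library was replicate 1, 2 or 4 of the Cyp1b1-/- label, with adjusted p up to 0.117.

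**Figure D2:**
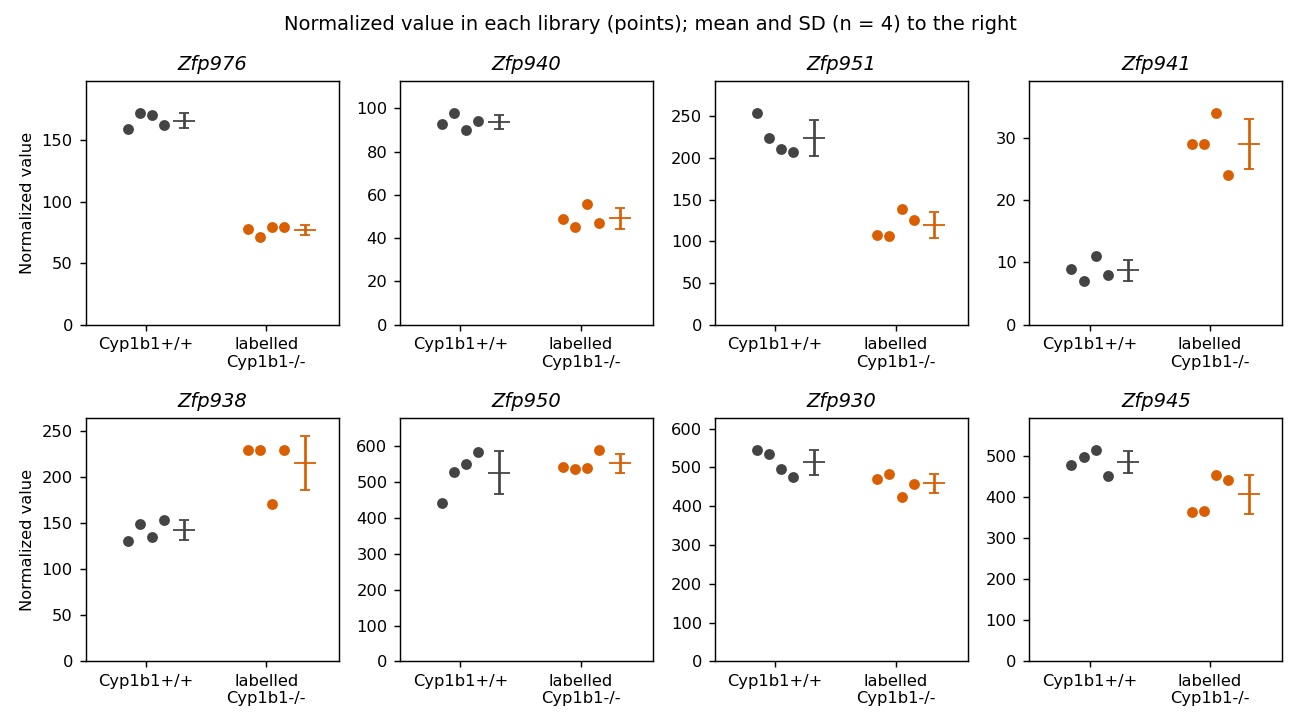
Normalized value (y axis, from 0) in each library for 8 members, with points for the 4 libraries of each label and the mean and SD to their right. Zfp976, Zfp940 and Zfp951 are lower and Zfp941 and Zfp938 higher with no overlap, while the groups of Zfp950, Zfp930 and Zfp945 overlap.

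The remaining lower members changed by less than 1.5-fold apart from Zfp993. The naming rule covers Zfp945 and Zfp930 by their means, and the values of the others were chosen after they were seen. On chromosome 17, which carries 12 members, 5 were lower, none was higher and 11 had a log2 fold change below 0, while 26.7% of the 670 genes on that chromosome were lower and 20.1% higher. Zfp942 had 391, 414, 386 and 388 against 298, 335, 307 and 308 (log2 fold change -0.34, SE 0.05, limma adjusted p = 0.000398). Its neighbour Zfp943 starts 88 bases away on the opposite strand, so that both read outward from the window printed above. Zfp943 had 250, 266, 219 and 219 against 195, 197, 181 and 220 (log2 fold change -0.26, limma adjusted p = 0.027). The Zfp942 groups are separate, while those of Zfp943 meet at 219 and 220, and Zfp943 lost the test when Cyp1b1+/+ replicate 1 or 2 was dropped, and also when the dropped library was replicate 1 or 3 of the Cyp1b1-/- label. Zfp948 had 434, 424, 416 and 415 against 378, 315, 337 and 378 (log2 fold change -0.27, limma adjusted p = 0.00616). Zfp944 had 208, 211, 215 and 205 against 172, 181, 185 and 191 (log2 fold change -0.20, limma adjusted p = 0.0175). Both are clear of overlap. Zfp945, with 478, 497, 516 and 451 against 365, 367, 454 and 442, overlaps at its highest Cyp1b1-/- value (log2 fold change -0.26, limma adjusted p = 0.0218). It lost the test when Cyp1b1+/+ replicate 2 or 3 was dropped, and also when the dropped library was replicate 1 of the Cyp1b1-/- label.

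On chromosome 7, 5 of 7 members were lower. Besides Zfp976, Zfp940 and Zfp975, these are Zfp974 and Zfp954. Zfp974 had 125, 133, 142 and 120 against 110, 92, 90 and 89 (log2 fold change -0.45, SE 0.10, limma adjusted p = 0.00344). Zfp954 had 152, 146, 147 and 164 against 122, 113, 135 and 125 (log2 fold change -0.30, limma adjusted p = 0.0112). Neither overlaps. Of all genes on chromosome 7, 41.2% were lower and the median log2 fold change was -0.13, and the part of this in the members' values was not tested. On chromosome 4, 3 of 5 members were lower and 1 higher, and of its 837 genes 33% were lower and 17.2% higher. Zfp984 had 285, 266, 220 and 261 against 186, 209, 184 and 174 (log2 fold change -0.45, limma adjusted p = 0.00194). Zfp933 had 302, 295, 328 and 309 against 259, 202, 274 and 270 (log2 fold change -0.30, limma adjusted p = 0.0209), and did not pass without Cyp1b1+/+ replicate 3. The 2 genes are neighbours, 13198 bases apart, and in both every library labelled Cyp1b1-/- lies below every Cyp1b1+/+ library. Zfp993, which shares much sequence with other genes, had 37, 46, 39 and 35 against 22, 35, 25 and 10 (log2 fold change -0.86, SE 0.32, limma adjusted p = 0.0439). The groups of Zfp993 meet at 35, and it passed only with all libraries or without replicate 2 labelled Cyp1b1-/-, among the fits that left out a library.

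The other lower members lie singly or in small numbers on their chromosomes. Zfp937 on chromosome 2 had 94, 118, 102 and 92 against 68, 57, 84 and 82 (log2 fold change -0.48, limma adjusted p = 0.0159), and did not pass without Cyp1b1+/+ replicate 2. Zfp956 on chromosome 6 had 218, 228, 198 and 246 against 164, 167, 190 and 172 (log2 fold change -0.36, limma adjusted p = 0.00442). Both are without overlap. Zfp966 on chromosome 2 had 202, 220, 210 and 190 against 177, 187, 177 and 178 (log2 fold change -0.19, limma adjusted p = 0.0342). It lost the test when Cyp1b1+/+ replicate 2 or 3 was dropped, and also when the dropped library was replicate 1, 3 or 4 of the Cyp1b1-/- label. Zfp930 on chromosome 8 had 546, 534, 496 and 475 against 469, 484, 424 and 457 (log2 fold change -0.16, SE 0.06, limma adjusted p = 0.0452), with overlap. It passed without Cyp1b1+/+ replicate 4 or replicate 2 labelled Cyp1b1-/- only, and its adjusted p rose to 0.121. In all, 14 of the 22 members that passed did so without each library in turn, 11 of them lower and 3 higher. The same 14 passed under every other processing alternative that tested them. No such share is given here over all genes, so the 14 cannot be read against a background.

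**Figure D3:**
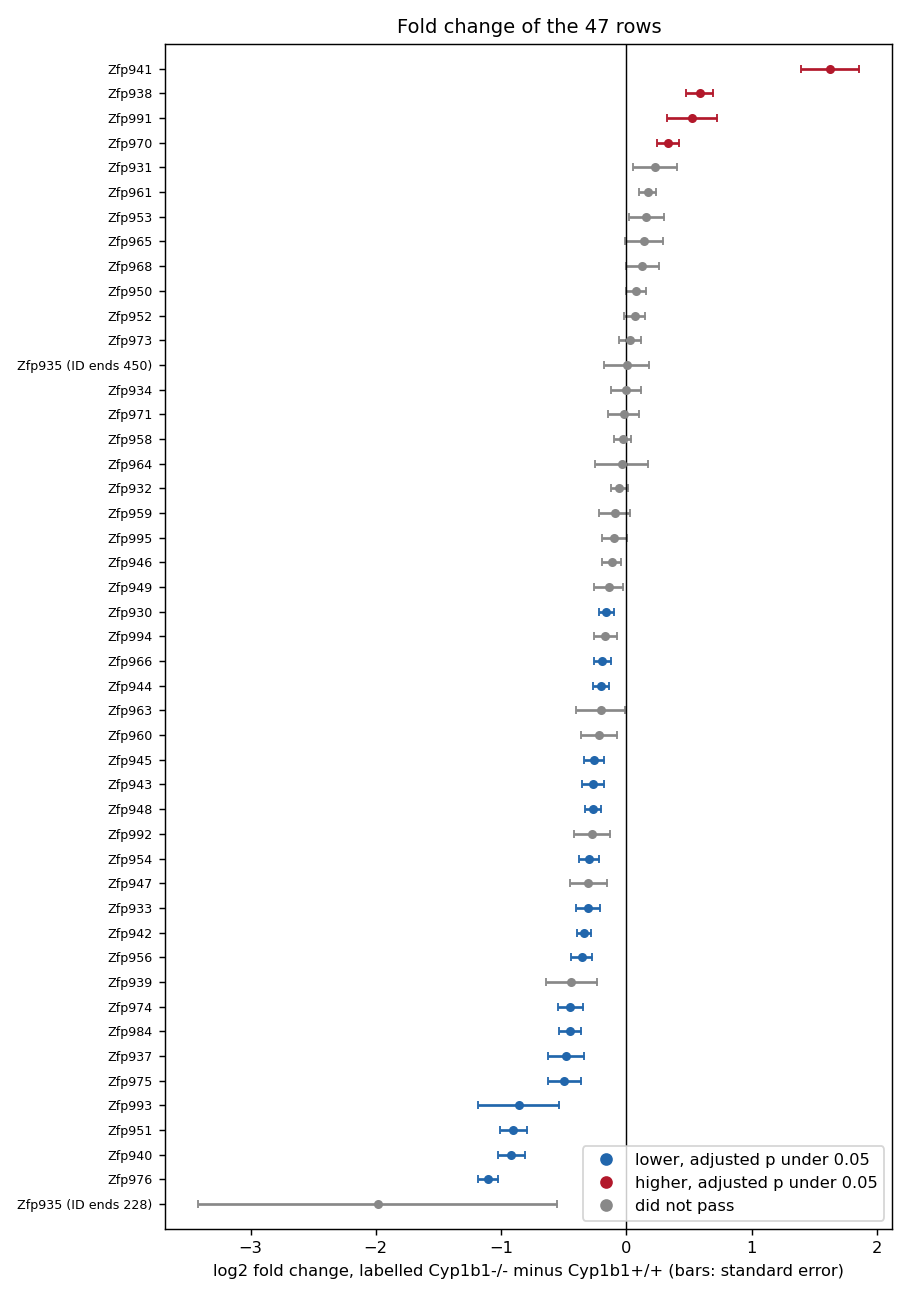
Log2 fold change (x axis, Cyp1b1-/- label minus Cyp1b1+/+) with its standard error (SE) for each of the 47 rows (y axis), with colour giving the outcome of the limma test. The 18 lower and 4 higher members are spread over the range, and the widest bar is that of the Zfp935 row whose ID ends in 228.

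The remaining 25 rows did not pass. Zfp950 (chromosome 19), the member with the highest mean before any adjustment for length, had 442, 528, 552 and 584 against 542, 537, 539 and 591 (means 526 ± 60.8 and 552 ± 25.9, SD, n = 4; log2 fold change 0.08, SE 0.08, limma adjusted p = 0.451). The groups overlap. On chromosome 19 64.5% of 462 genes were higher and the median log2 fold change was 0.29, so Zfp950 lies 0.21 below its chromosome. Closest to the threshold was Zfp961, with 223, 194, 227 and 221 against 245, 244, 235 and 248 (log2 fold change 0.17, limma adjusted p = 0.0512), whose groups do not overlap. Zfp932, reported in mouse to repress the osteocalcin-related gene Bglap3 together with its paralog Gm15446, had 354, 320, 306 and 332 against 336, 311, 327 and 289 (log2 fold change -0.06, SE 0.07, limma adjusted p = 0.51). Gm15446 had 238, 214, 211 and 201 against 218, 199, 213 and 186 (log2 fold change -0.08, limma adjusted p = 0.394). Neither moved beyond the spread of the libraries, and Bglap3 was not among the genes measured. A p that misses the threshold does not show that the levels are equal.

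Zfp935 is the least certain member. The row ENSMUSG00000055228 is listed at 0 in Cyp1b1+/+ replicate 1 and in replicates 3 and 4 labelled Cyp1b1-/-, with 31, 45 and 44 in the other Cyp1b1+/+ libraries and 8 and 29 in the other libraries labelled Cyp1b1-/- (log2 fold change -1.98, SE 1.43, limma adjusted p = 0.266), and without Cyp1b1+/+ replicate 1 it passed at -3.32. The row ENSMUSG00000113450 had 173, 124, 121 and 132 against 147, 96, 142 and 172 (log2 fold change 0.002). The 2 rows overlap on chromosome 13 and share 1520 stretches of 100 bases, so their reads can be split between them, and the values of either are uncertain. Zfp939, a transcribed pseudogene in GENCODE, had 50, 51, 46 and 50 against 34, 36, 26 and 53 (log2 fold change -0.44, limma adjusted p = 0.0898) and passed without replicate 4 labelled Cyp1b1-/-. The other rows that did not pass had log2 fold changes from -0.30 to 0.23. Below 0 were Zfp947, Zfp992, Zfp960, Zfp963, Zfp994, Zfp949, Zfp946, Zfp995, Zfp959, Zfp964, Zfp958, Zfp971 and Zfp934. Above 0 were Zfp952, Zfp953, Zfp965, Zfp968, Zfp973 and Zfp931.

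Levels can be compared between genes only per length, here as the mean normalized value per kb of GENCODE exons. Zfp930 was highest at 162 per kb, followed by Zfp948 at 146, Zfp932 at 112 and Zfp942 at 108. Zfp941 was lowest at 4.11 per kb, below Zfp964 at 10.6 and the Zfp935 row ending in 228 at 12.03. The members that fell most lie between these ends, with Zfp976 at 61.4, Zfp951 at 58.6 and Zfp940 at 14.4 per kb, so the largest falls are not those of the most expressed members.

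By chromosome, the members lie on 11 chromosomes, and 25 of 47 lie on chromosomes 2, 4 and 17. On chromosome 17 all genes had a median log2 fold change of -0.02, while the 12 members had a median of -0.21. On chromosome 7 the 7 members had a median of -0.45 and all genes -0.13. The 8 members on chromosome 2 had a median of 0.08 with 2 lower and 1 higher, and the 4 on chromosome 13 a median of -0.0004 with none past the test. With the median of its own chromosome subtracted, 33 of 47 members lay below 0 and the median was -0.16.

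**Figure D4:**
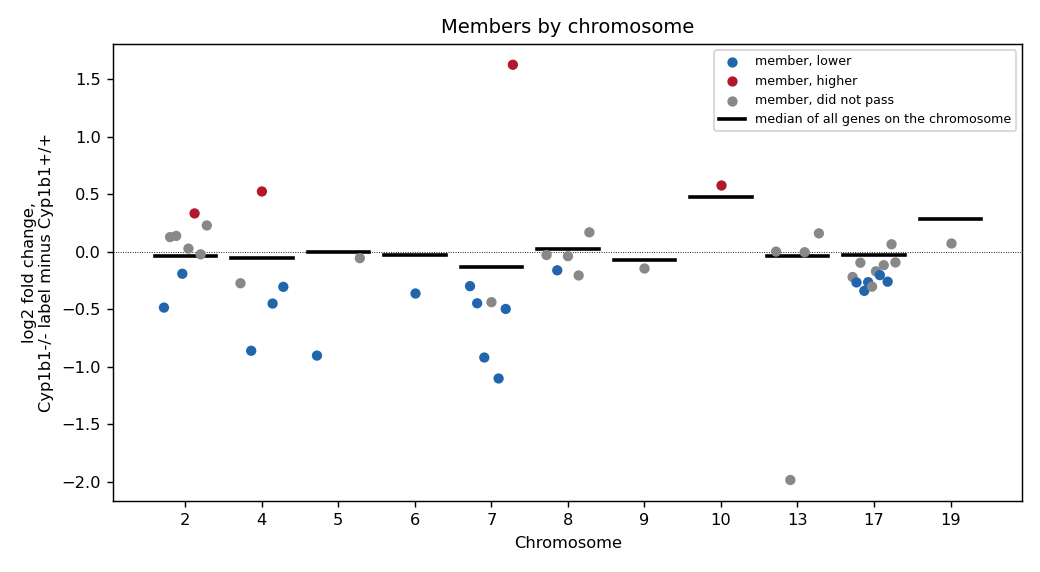
Log2 fold change (y axis, Cyp1b1-/- label minus Cyp1b1+/+) of each member by chromosome (x axis), coloured by outcome, with a bar at the median of all genes on that chromosome. Chromosome 17 holds 11 of 12 members below 0, and Zfp938 lies near the raised median of chromosome 10.

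The coding sequences were described by their fingers and KRAB boxes. The 46 rows with a coding sequence in GENCODE held 0 to 21 C2H2 fingers (median 11), with medians of 11 in the lower members, 10.5 in the higher and 10 in those that did not pass. Zfp974 held the most, 21, and the Zfp935 row ending in 228 held none. The core of the KRAB A box was found in 44 of 46, by a pattern widened after the letters were seen, and in 21 by a narrower pattern, and Zfp974 and Zfp956 lacked it in both. Copies are a limit on the values: 18 members shared at least 10% of their 100-base stretches with transcripts of other genes and 29 shared less. Of the 29 members 12 were lower (41.4%) and 2 higher (6.9%), and of the 18 members 6 were lower (33.3%) and 2 higher (11.1%), where all genes gave 26.9% and 26.8%. In 9 rows over 50% was shared, so their values are uncertain: Zfp965, Zfp966, Zfp968 and Zfp973 on chromosome 2 (73.2% to 93.4%), Zfp993 (71.9%), Zfp991 (70.3%), Zfp960 (68.3%) and the 2 rows of Zfp935. The calls of Zfp966, Zfp991 and Zfp993 rest on such values.

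KRAB zinc finger proteins act through co-repressors and silencing enzymes. Of a list of 30 such genes 28 were measured, of which 6 were higher (21.4%, against 26.8% of all genes), 9 lower (32.1%, against 26.9%) and 13 did not pass, so the shares lie near the background. The median log2 fold change was -0.03. No change in this list was set against the median of the gene's chromosome. Apart from the Y chromosome, these medians ran from -0.17 on chromosome 16 to 0.47 on chromosome 10. The part of such shifts in the values below was not tested. Trim28, the co-repressor bound by the KRAB box, had 8363, 8083, 8342 and 8284 against 6845, 6460, 6775 and 6891 (log2 fold change -0.29, SE 0.03, limma adjusted p = 2.29e-05). Morc3, a chromatin ATPase, had 2557, 2599, 2658 and 2683 against 1520, 1672, 1626 and 1638 (log2 fold change -0.70, SE 0.04, limma adjusted p = 1.84e-07). Both fell without overlap between the groups. Hdac2, a histone deacetylase, was higher, with means of 2037 ± 75.4 and 2740 ± 144 (SD, n = 4; log2 fold change 0.43, limma adjusted p = 1.86e-05). Dnmt3a, a DNA methyltransferase, was higher as well, with means of 184 ± 9.85 and 293 ± 26.4 (SD, n = 4; log2 fold change 0.67, limma adjusted p = 4.14e-05).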

How the data were processed

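Per the labels and the study's methods, the authors sequenced poly-A RNA as paired-end reads, aligned them with STAR 2.5.3a to GRCm38.p6, quantified genes with RSEM, dropped scarcely read genes and applied TMM normalization. The deposited score of a gene is its TMM-scaled count rounded to a whole number, the normalized value. Totals of 19261729 to 20134745 per library reflect this scaling, so the raw depth and counting error of each library are unknown. The paper gives only an average number of reads for each group. The authors' own comparison columns (fold changes and p-values) were not used.

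All 13575 genes were fitted with limma 3.58.1 (R 4.3.3, mean-variance trend) on log2(value + 1), with 8 libraries and no covariate. Means, SDs, positions and features were computed with Python 3.11.15. GENCODE vM21 (GRCm38) gave positions for all 47 rows and coding sequences, used in place of RefSeq proteins, and RefSeq (GRCm38) the promoters. Identity between proteins was not computed.

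Named in full by rule are members past the test by over 1.5-fold without overlap and, of the others, the 3 with the highest mean. Zfp932 was named for its reported role and Zfp975 as a nearest measured gene. Any further members given with values per library, Zfp938 among them, were chosen after their values were seen. Also named are the 4 co-repressors with the smallest p and the nearest measured genes on both sides of the members changed over 2-fold. The members and lists were chosen with earlier results of these data known. Alternatives were other pseudocounts (0.1, 0.5), median-ratio and equal-total scaling, filters on a mean of 10 or 50, the replicate number as a block, and leaving out each library.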

Additional observations from a re-analysis of the deposited data

Results flagged for a closer look

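In 7 of 94 groups of 4 libraries (47 rows, 2 labels) the value of 1 library stood far from the other 3 relative to the range of the group; chance flags about 1 in 20 groups. Zfp938 had 171 in replicate 3 labelled Cyp1b1-/-, against 229 to 230 in the other 3. Zfp950 had 591 in replicate 4 labelled Cyp1b1-/-, against 537 to 542, and Zfp953 had 47 in replicate 1, against 65 to 66. Zfp966 had 187 and Zfp976 had 71 in replicate 2 labelled Cyp1b1-/-, against 177 to 178 and 78 to 79. Zfp974 had 110 in replicate 1 labelled Cyp1b1-/-, against 89 to 92, and Zfp995 had 127 in Cyp1b1+/+ replicate 1, against 103 to 107. Zfp976 and Zfp974 kept their test result without each library in turn, and Zfp966 kept it without replicate 2.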

How the results depend on the processing

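The count of lower members was 17 or 18 under every alternative that kept all libraries, and 12 to 18 without each library in turn; that of higher members was 3 to 5, and 3 to 4 without each library. Over 1.5-fold, the higher count of 1 became 2 with pseudocounts of 0.1 and 0.5 and with median ratios, where Zfp938 crossed the limit. The count became 0 with a mean of at least 50, which drops Zfp941. It was 1 to 3 without each library, and the lower count was 3 to 4. Over 2-fold, the higher count of 1 became 0 with a mean of at least 50 and was 1 without each library, and the lower count was 1 to 2: a further member passed without Cyp1b1+/+ replicate 1 (Zfp935) or replicate 2 labelled Cyp1b1-/- (Zfp993). The other Zfp genes gave 68 to 87 lower and 48 to 56 higher without each library, and the co-repressor genes 9 to 10 and 4 to 7. The log2 fold change of Zfp950 changed sign, to -0.0062, without Cyp1b1+/+ replicate 1, and was at most 0.1275 without other libraries; it did not pass in any of these fits. With the replicate number as a block, 17 members were lower and 3 higher, and Zfp966 and Zfp991 no longer passed. Libraries with the same number did not deviate together (correlations -0.046 to 0.023), so the numbers do not pair them. Equal totals lost Zfp991, median ratios lost Zfp930, and median ratios, a pseudocount of 0.1 and a mean of at least 50 each added Zfp961. These scalings moved the median gene by 0.003 and -0.026 on the log2 scale. Depth limits could not be set, since the values are not raw counts.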
